A study of Mus musculus with 16 samples.

Results

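The MHC class II presentation genes are the 7 genes H2-Aa, H2-Ab1, H2-Eb1, H2-DMa, H2-DMb1, Cd74 and Ciita, taken by symbol from a table of raw read counts that holds 52338 mouse genes. All 7 were found in the table, and all 7 passed the filter on low counts that left 17731 genes for testing. The counts come from kidneys of C57BL6 mice that were fed a high-fat diet, received FAN or vehicle, and were sampled at day 15. Feeding was either ad libitum or time-restricted, which gives 4 groups of 4 libraries each: FAN ad libitum, FAN time-restricted, vehicle ad libitum and vehicle time-restricted. All 4 groups share the high-fat diet, and every group is named by its agent and its feeding regimen. What FAN stands for is not written in the labels; the count columns contain the word folic. Dose, sex, age and the hours of feeding are not given in the sources used here. Nothing in the labels says which libraries come from separate animals, so p-values measure the spread between these libraries.

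MHC class II molecules sit on the surface of antigen-presenting cells (dendritic cells, macrophages and B cells) and show peptides from engulfed proteins to CD4+ T cells. An alpha and a beta chain assemble with the invariant chain CD74, which blocks the peptide groove and guides the complex to the endosome. There cathepsin S cuts the invariant chain, H2-DM exchanges the last fragment for a peptide, and CIITA is the coactivator that switches the whole set on. Interferon-gamma is the best known inducer of CIITA outside the professional antigen-presenting cells, and renal tubule cells can take up class II expression under inflammation.

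In GENCODE M21 on GRCm38, 5 of the 7 genes lie in the major histocompatibility region of chromosome 17. H2-DMa runs from 34119541 to 34139101, H2-DMb1 from 34153072 to 34160230, H2-Ab1 from 34257689 to 34269419 and H2-Eb1 from 34305867 to 34316674, all on the plus strand. H2-Aa lies between H2-Ab1 and H2-Eb1 on the minus strand, from 34282744 to 34287823. The other 2, Cd74 and Ciita, lie outside this region. All 7 are annotated as protein-coding.

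Class II promoters share a short module in which the RFX complex binds an X box and NF-Y binds a Y box whose core is ATTGG, and CIITA docks on the assembled factors. RefSeq promoter windows (GRCm38.p6, 250 bases before to 50 after each start) were matched for 4 of the 7 genes, H2-Aa, H2-Eb1, H2-DMa and H2-DMb1, and not for H2-Ab1, Cd74 and Ciita. The stretches just before the starts of an alpha-chain and a beta-chain gene are shown because both hold GNAAC followed by ATTGG at nearly the same distance, with these letters in capitals. They lie at chr17:34287824-34287943 (minus strand) and chr17:34305747-34305866 (plus strand).
H2-Aa: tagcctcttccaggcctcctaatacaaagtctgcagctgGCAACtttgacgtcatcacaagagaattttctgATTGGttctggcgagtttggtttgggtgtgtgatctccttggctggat
H2-Eb1: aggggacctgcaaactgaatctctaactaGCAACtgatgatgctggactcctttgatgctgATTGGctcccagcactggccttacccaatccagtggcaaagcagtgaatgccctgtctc

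In H2-Aa, GNAAC begins 81 bases and ATTGG 48 bases before the start, a spacing of 33 bases. The same letters begin 91 and 59 bases before the start of H2-Eb1, a spacing of 32 bases. AGNNAC followed by ATTGG, 30 to 38 bases from start to start on either strand, occurred in 1.62% of 32851 windows and in those of 2 members, H2-Eb1 and H2-DMb1. GNAAC followed by ATTGG at 29 to 37 bases, a pattern chosen after these windows were seen and overlapping the first, occurred in 1.54% of all windows and in those of 3 members, H2-Aa, H2-Eb1 and H2-DMb1. Neither pair was present in the H2-DMa windows. CCAAT alone, the Y-box core read on the other strand, occurred in 37.4% of all windows and AGNNAC alone in 90.4%. Of the accessory class II genes with a window, H2-Oa, H2-Ob and H2-Eb2 also held the first pair. H2-DMb2, Marchf1 and Marchf8 did not.

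Total counts ranged from 12450812 to 33976660 per library. Levels are given as CPM, the read count of a gene relative to the total of its library, after TMM scaling, an adjustment that makes the typical gene comparable between libraries. FAN libraries are named by the numbers in their column names. The share of counts from mitochondrial transcripts was 6.94% to 14.8% with FAN under ad libitum feeding and 21.4% to 26.7% with FAN under time-restricted feeding. The vehicle groups had 17.2% to 22.8% (ad libitum) and 18.03% to 20.9% (time-restricted). Libraries 6 and 7 of FAN ad libitum had the smallest shares, 7.29% and 6.94%. The S number in the column names splits the libraries into runs of early, middle and late numbers, and these 2 libraries, together with FAN time-restricted 6 and libraries 1 and 2 of each vehicle group, carry early numbers. The other 5 FAN libraries carry late numbers and the other 4 vehicle libraries middle numbers. FAN and vehicle libraries with late and middle numbers therefore cannot be compared within 1 run of S numbers.

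The first question was how much more class II RNA the kidney held after FAN than after vehicle. With FAN, all 7 genes were higher under both feeding regimens, by about 4.49-fold to 11.2-fold. Under time-restricted feeding the chain genes H2-Aa, H2-Ab1 and H2-Eb1 had the largest increases of the 7 and Cd74 the smallest. Under ad libitum feeding H2-DMb1 had the smallest increase. Called genes are those with an adjusted p under 0.05 by edgeR's quasi-likelihood test, Benjamini-Hochberg over the 17731 genes. Under ad libitum feeding 7 of 7 were called higher, beside 32.1% of all genes tested, and 7 of 7 had groups that did not overlap, beside 29% of all genes. Under time-restricted feeding the count was again 7 of 7, beside 24.5% of all genes, and 7 of 7 did not overlap, beside 22.4%. The median log2 change of the 7 genes was 2.87 and 2.93, against 0.06 and 0.05 over all genes tested. Scaled by library size alone, all 7 stayed called, with log2 changes of 2.88 (H2-DMb1) to 3.69 (H2-Ab1) under ad libitum and 2.29 (Cd74) to 3.603 (H2-Ab1) under time-restricted feeding, and the median over all genes was 0.75 and 0.16. In that scaling 10821 genes were called higher and 2072 lower under ad libitum feeding, against 5691 and 5079 with TMM, and 5051 and 2465 under time-restricted feeding, against 4349 and 3370. In whole tissue, more cells that carry a transcript and more RNA per cell cannot be told apart.

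**Figure D1:**
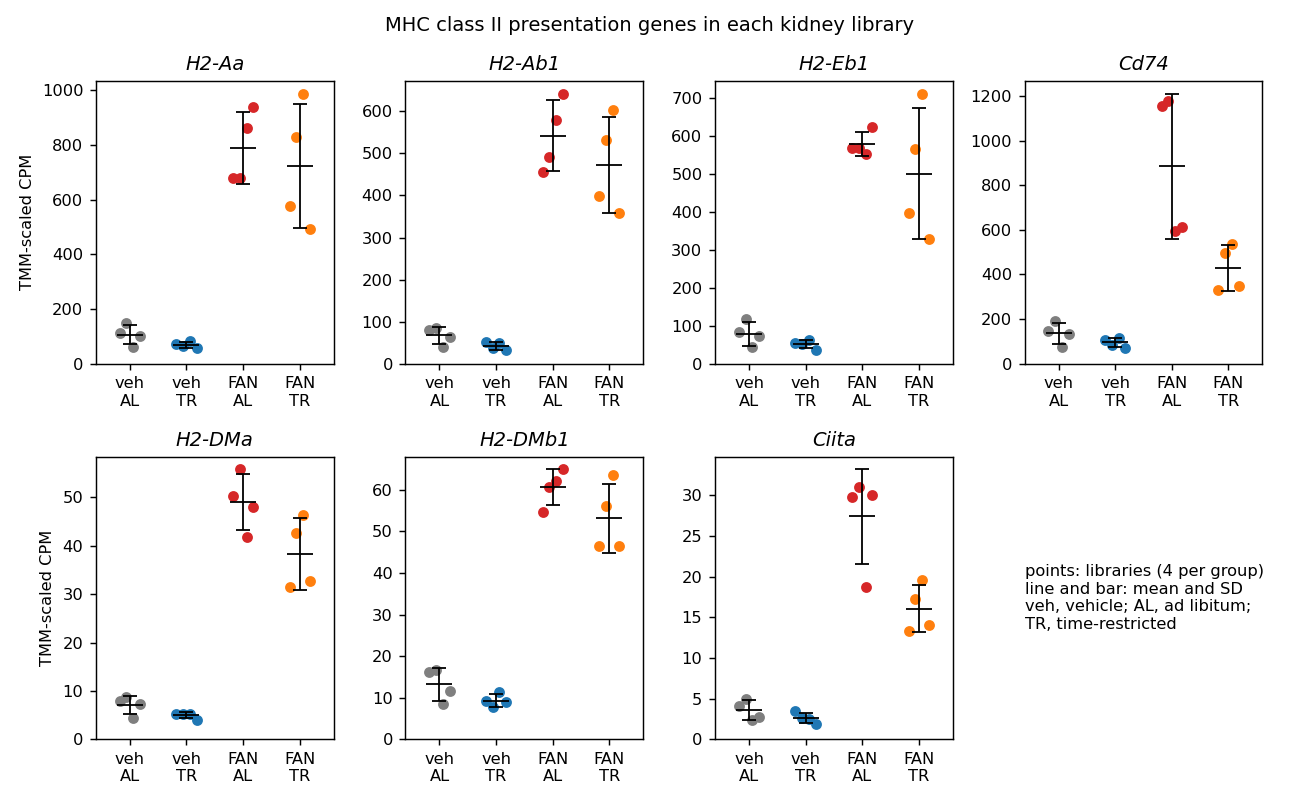
TMM-scaled CPM of each gene (vertical axes, from 0) in the 4 libraries of each group (points), with the mean and SD (line and bar). In all 7 panels every FAN library lies above every vehicle library, and in the Cd74 panel libraries 6 and 7 of FAN ad libitum (1157 and 1176 CPM) lie far above the other 2.

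H2-Aa encodes the alpha chain of I-A, the class II molecule that C57BL/6 mice make. It reached 680, 680, 861 and 939 CPM in FAN ad libitum 6, 7, 10 and 12, and 113, 149, 61.9 and 102.5 CPM in vehicle ad libitum 1 to 4. It reached 579, 831, 988 and 494 CPM in FAN time-restricted 6, 10, 11 and 12, and 72.6, 65.3, 81.9 and 56.3 CPM in vehicle time-restricted 1 to 4. The lowest FAN library was thus more than 3 times the highest vehicle library. The log2 change was 2.89 (SE 0.26, adjusted p = 2.84e-08) under ad libitum and 3.39 (SE 0.26, adjusted p = 3.01e-08) under time-restricted feeding.

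H2-Ab1 encodes the beta chain that pairs with H2-Aa. Its level was 457, 491, 579 and 641 CPM in FAN ad libitum and 80.8, 85.8, 40.6 and 63.0 CPM in vehicle ad libitum. Under time-restricted feeding it was 398, 532, 603 and 359 CPM with FAN and 51.2, 37.4, 48.8 and 31.5 CPM with vehicle. Both FAN groups were far above both vehicle groups, and the FAN groups overlapped each other. H2-Ab1 had the largest change of the 7 under each regimen, 8.02-fold (SE 0.24 on the log2 scale, adjusted p = 7.61e-09) and 11.2-fold (log2 3.48, SE 0.24, adjusted p = 1.2e-08).

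H2-Eb1 encodes the beta chain of I-E, whose alpha-chain partner H2-Ea is broken by a deletion in mice of the b haplotype, such as C57BL/6. It stood at 567, 567, 551 and 624 CPM in FAN ad libitum and at 82.4, 118, 43.1 and 72.0 CPM in vehicle ad libitum. Under time-restricted feeding it stood at 396, 564, 710 and 327 CPM with FAN and at 53.4, 50.8, 62.0 and 36.6 CPM with vehicle. The FAN ad libitum libraries were tight for this gene (CV 5.55%) and the FAN time-restricted libraries wide (CV 34.5%). The log2 changes were 2.87 (SE 0.28, adjusted p = 8.99e-08) and 3.30 (SE 0.28, adjusted p = 1.04e-07). H2-Ea itself had 0 counts in all 16 libraries, which allows up to 3 counts per library, or 0.0883 to 0.241 CPM of the raw total. This limit covers counting error only.

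Cd74 (chromosome 18, 60803848 to 60812652, plus strand) encodes the invariant chain, which also serves at the cell surface as a receptor for the cytokine MIF. Its level was 1157, 1176, 595 and 615 CPM in FAN ad libitum 6, 7, 10 and 12, and 145, 190, 76.3 and 135 CPM in vehicle ad libitum. Under time-restricted feeding it was 331, 495, 537 and 348 CPM with FAN and 108, 84.9, 116 and 71.4 CPM with vehicle. The FAN ad libitum libraries formed a high pair, 6 and 7, and a low pair, 10 and 12. The log2 changes with FAN were 2.70 (SE 0.29, adjusted p = 4.25e-07) and 2.17 (SE 0.29, adjusted p = 1.26e-05). Without libraries 6 and 7 the ad libitum value was 2.10 (adjusted p = 2.92e-05).

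H2-DMa and H2-DMb1 encode the chains of H2-DM, the endosomal peptide exchanger. H2-DMa had 50.3, 55.8, 41.9 and 48.0 CPM in FAN ad libitum against 7.93, 8.66, 4.51 and 7.32 CPM in vehicle ad libitum. It had 31.4, 42.7, 46.4 and 32.7 CPM in FAN time-restricted against 5.21, 5.32, 5.31 and 4.07 CPM in vehicle time-restricted. All FAN libraries stood well above the vehicle ones, with log2 changes of 2.78 (SE 0.18, adjusted p = 9.41e-10) and 2.93 (SE 0.19, adjusted p = 5.94e-09). H2-DMb1 had 54.6, 60.7, 62.2 and 65.0 CPM in FAN ad libitum against 16.2, 16.8, 8.53 and 11.5 CPM in vehicle ad libitum. It had 46.5, 56.1, 63.5 and 46.4 CPM in FAN time-restricted against 9.15, 7.87, 11.4 and 8.88 CPM in vehicle time-restricted. Its groups did not overlap either, and its log2 changes were 2.18 (SE 0.18, adjusted p = 1.55e-08) and 2.51 (SE 0.19, adjusted p = 2.34e-08). H2-DMb1 values carry an uncertainty, because 27.2% of its 50-base transcript stretches also occur in the neighbouring H2-DMb2. H2-DMa shares 360 exon bases (10.4%) with Brd2 on the other strand, and the strand setting of the counting is not given in the sources used here.

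Ciita (chromosome 16, 10480059 to 10528418, plus strand) encodes the coactivator of the set, and its own level is a usual gauge of whether the set is switched on. It was the lowest of the 7, at 29.8, 31.0, 18.8 and 30.0 CPM in FAN ad libitum and 4.17, 5.01, 2.45 and 2.78 CPM in vehicle ad libitum. Under time-restricted feeding it was 13.3, 17.2, 19.6 and 14.1 CPM with FAN and 3.47, 2.59, 2.56 and 1.96 CPM with vehicle. FAN and vehicle did not overlap, and library 10 of FAN ad libitum was well below the other 3 of its group. The log2 changes were 2.91 (SE 0.23, adjusted p = 9.04e-09) and 2.59 (SE 0.24, adjusted p = 1.99e-07). Ciita shares 329 exon bases (3.45%) with Dexi on the other strand.

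Levels of different genes were compared as CPM per kilobase of the principal transcript. In FAN ad libitum the order of the means was H2-Aa (700 ± 116), Cd74 (628 ± 230), H2-Ab1 (447 ± 69.3), H2-Eb1 (346 ± 19.2), H2-DMb1 (43.2 ± 3.12), H2-DMa (29.6 ± 3.48) and Ciita (4.56 ± 0.963), each with SD and n = 4. The means of H2-Aa and Cd74, and of Cd74 and H2-Ab1, lay closer than the SD of Cd74. In FAN time-restricted the order was H2-Aa (641 ± 201.4), H2-Ab1 (390 ± 94.1), Cd74 (303.3 ± 73.5) and H2-Eb1 (299 ± 103.2), with the last 2 within their SD, and the order of the remaining 3 was as before. In vehicle ad libitum Cd74 (96.8 ± 33.2) and H2-Aa (94.6 ± 31.9) were level, followed by H2-Ab1 (55.7 ± 16.9) and H2-Eb1 (47.3 ± 18.6), again within their SD. In vehicle time-restricted the 4 stood at 67.5 ± 14.7, 61.2 ± 9.64, 34.9 ± 7.71 and 30.4 ± 6.33, in the same order. Ciita was last in each group, at 0.599 ± 0.200 in the vehicle libraries of ad libitum feeding and 0.440 ± 0.104 in those of time-restricted feeding.

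**Figure D2:**
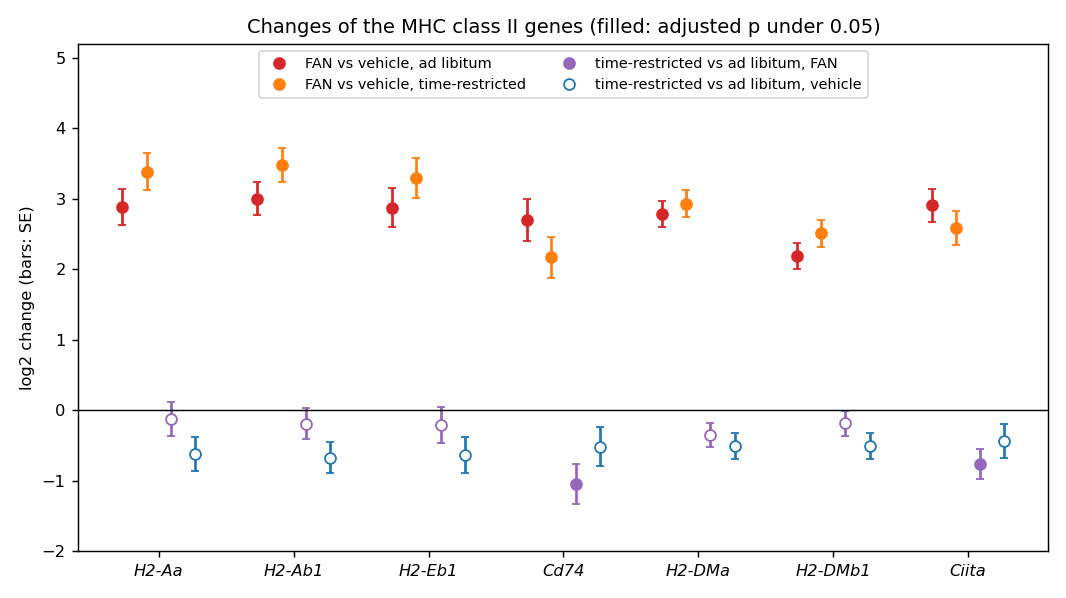
Log2 change of each gene in 4 comparisons, with the standard error of the edgeR model as bars; filled points have an adjusted p under 0.05. All 14 FAN against vehicle changes are filled and lie between 2.17 and 3.48, whereas of the feeding changes only Cd74 and Ciita in FAN are filled.

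The second question was whether time-restricted feeding altered class II RNA. In FAN mice, Cd74 and Ciita were lower under time-restricted than under ad libitum feeding, whereas the chain genes and H2-DM genes did not pass the test. Cd74 fell by 1.05 on the log2 scale (SE 0.28, adjusted p = 0.00846), from 886 ± 325 to 428 ± 104 CPM (SD, n = 4 each), and the groups did not overlap. Ciita fell by 0.77 (SE 0.21, adjusted p = 0.0112), from 27.4 ± 5.78 to 16.1 ± 2.91 CPM, and the groups overlapped through library 10 of FAN ad libitum. So 2 of 7 genes were called lower, beside 13.9% of all genes tested, and 1 of 7 did not overlap, beside 12.3%. The remaining 5 had log2 changes of -0.13 (H2-Aa), -0.19 (H2-DMb1), -0.20 (H2-Ab1), -0.21 (H2-Eb1) and -0.35 (H2-DMa), with adjusted p of 0.12 to 0.715. The median over the 7 was -0.21, against -0.02 over all genes.

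Cd74 and Ciita were no longer called lower once libraries 6 and 7 of FAN ad libitum were left out. That left libraries 10 and 12 alone in the group, so the test also rested on fewer libraries. Over all genes, those at an unadjusted edgeR p under 0.05 fell from 7499 of 17731 to 5543 of 18334. Leaving out libraries 6 and 7 was an alternative chosen after seeing the data. In it 0 of 7 genes were called, and the log2 changes were -0.50 (adjusted p = 0.28) for Cd74 and -0.60 (adjusted p = 0.134) for Ciita. Among libraries with late S numbers alone they were -0.39 (adjusted p = 0.251) and -0.51 (adjusted p = 0.186). Among those with early numbers they were -1.85 (adjusted p = 0.0024) and -1.22 (adjusted p = 0.00764), with FAN time-restricted 6 as the lone library of its arm and assumed to vary like the other groups. With the run of S numbers as a block in the fit, both stayed called, at -0.87 (adjusted p = 0.0395) and -0.75 (adjusted p = 0.00895). Leaving out any 1 library kept both called. Scaled by library size alone, all 7 genes were called lower and the median over all genes was -0.67. In that scaling 993 genes were called higher and 10503 lower, against 3180 and 2459 with TMM.

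In vehicle mice, no member was called between the feeding regimens. The log2 changes ran from -0.44 for Ciita to -0.68 for H2-Ab1, against a median of -0.01 over all genes. Adjusted p ran from 0.565 to 0.834, and the unadjusted p was under 0.05 for 5 of the 7. The count of 0 of 7 stands beside 0% of all genes, since edgeR called 0 of 17731. At an unadjusted p under 0.05 there were 1143 genes, and DESeq2 called 58. In all 7 genes the vehicle groups overlapped, whereas 2% of all genes had vehicle groups that did not overlap with the time-restricted one lower.

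The third question was whether the FAN response itself differed with feeding. The interaction, defined as the FAN change under time-restricted minus that under ad libitum feeding, was called for 0 of 7 genes, beside 9.16% of all genes. It was 0.50 (SE 0.34, adjusted p = 0.392) for H2-Aa, 0.48 (SE 0.31) for H2-Ab1, 0.43 (SE 0.37) for H2-Eb1, 0.32 (SE 0.25) for H2-DMb1 and 0.15 (SE 0.25) for H2-DMa. It was -0.53 (SE 0.39, adjusted p = 0.441) for Cd74 and -0.32 (SE 0.32, adjusted p = 0.589) for Ciita. The standard errors leave room for differences of either sign in each gene. At an unadjusted p under 0.05 no member passed, the lowest value being 0.145. Scaled by library size, the interaction of Cd74 was -1.12 (adjusted p = 0.0438), and without libraries 6 and 7 of FAN ad libitum it was 0.019.

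Within a library, the ratio of the counts of a pair of genes does not depend on scaling. The H2-Ab1-to-H2-Aa ratio stayed within 0.560 to 0.726 over the 16 libraries. The Cd74-to-H2-Aa ratio did not: it was 0.544 to 0.704 in FAN time-restricted, against 1.27 to 1.49 for vehicle at the same regimen and 1.23 to 1.31 for vehicle ad libitum. In FAN ad libitum it was 1.70 and 1.73 in libraries 6 and 7, and 0.691 and 0.654 in libraries 10 and 12. FAN libraries 10 and 12 under ad libitum feeding thus stood with the FAN time-restricted libraries, below every vehicle library, while libraries 6 and 7 stood above every vehicle library. The same 2 libraries had an H2-DMa-to-H2-DMb1 ratio of 0.921 and 0.920, above the range of 0.459 to 0.761 in the other libraries. Their H2-DMb2-to-H2-DMb1 ratios, 0.296 and 0.337, were also the highest, with 0.236 the next highest, in FAN time-restricted 10. FAN time-restricted 6, which also carries an early S number, had a Cd74-to-H2-Aa ratio within the range of its group. These ratios were looked at after the values had been seen and carry no test. Libraries 6 and 7 also had the smallest mitochondrial shares, 7.29% and 6.94%. Libraries 10 and 12 of FAN ad libitum had the next smallest, 14.8% and 12.1%. Their Cd74-to-H2-Aa ratios were near those of FAN time-restricted, whose shares were 21.4% to 26.7%. The part of the mitochondrial share in these ratios was not tested.

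**Figure D3:**
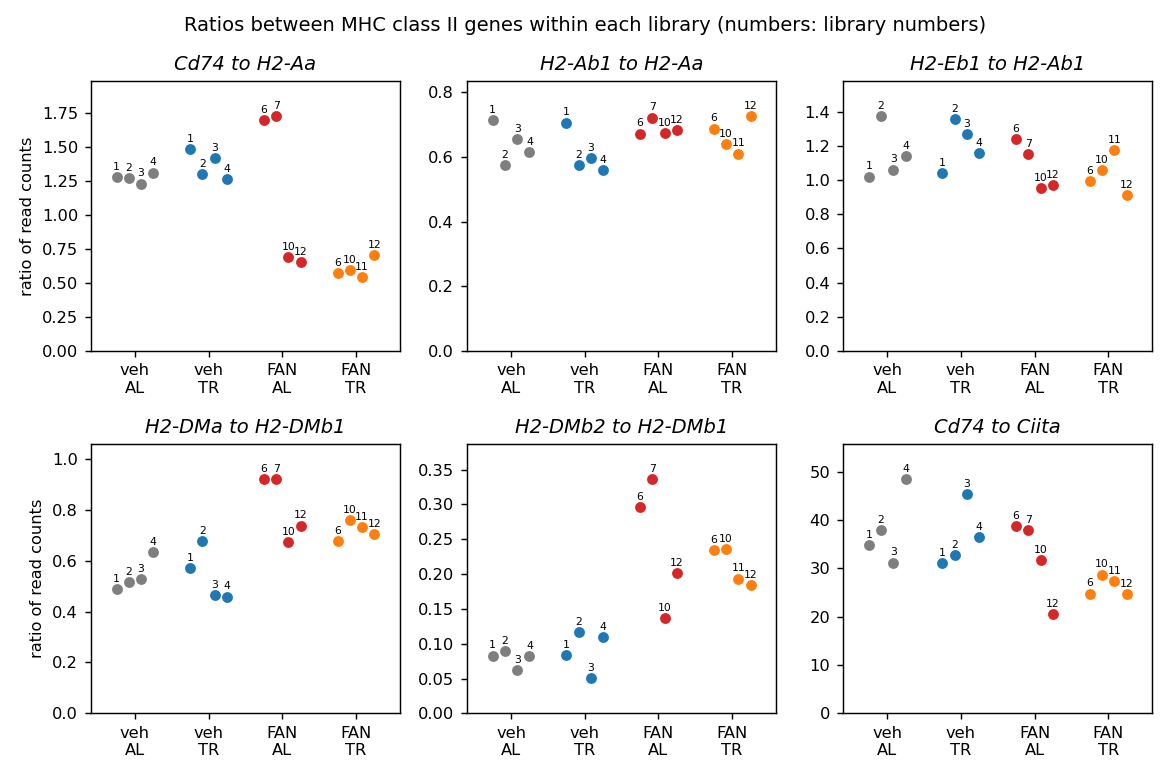
Ratio of read counts for 6 pairs of genes in each library (points, numbered by library) by group, with vertical axes from 0. Libraries 6 and 7 of FAN ad libitum stand apart for Cd74 to H2-Aa (1.70 and 1.73) and for H2-DMa to H2-DMb1. They are also the highest for H2-DMb2 to H2-DMb1 (0.296 and 0.337), while H2-Ab1 to H2-Aa stays between 0.560 and 0.726.

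The genes rose and fell together over the 16 libraries, which include the FAN difference and share depth and scaling. Pearson's r of log2 CPM with H2-Aa was 0.998 for H2-Ab1, 0.997 for H2-Eb1, 0.995 for H2-DMb1, 0.991 for H2-DMa, 0.972 for Ciita and 0.941 for Cd74. Of deviations from the group means, r with H2-Aa was 0.953 for H2-Ab1, 0.955 for H2-Eb1, 0.876 for H2-DMb1 and 0.790 for H2-DMa, and only 0.627 for Ciita and 0.556 for Cd74. In FAN ad libitum, libraries 6 and 7 stood above 10 and 12 for Cd74 and below them for H2-Aa. Cd74 and Ciita had r of 0.783 with each other by deviations from the group means. These are descriptions over libraries of 4 groups and carry no test.

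Over all 16 libraries the 5 genes most like Cd74 were Pltp (r = 0.991), Akna, Nfam1, Adamts2 and Itgax (r = 0.984). Those most like Ciita were Tgfbi (r = 0.994), Cpxm1, Dock2, Nckap1l and Morrbid (r = 0.990). By deviations from the group means, the genes most like Cd74 were Stab1 (r = 0.940), Dchs1, Map3k6, Col6a1 and Gpc6 (r = 0.914). The genes most like Ciita were then Pear1 (r = 0.936), Il2rg, Cd3e, Shank3 and Akna (r = 0.891). The ranking took the highest of 17721 genes each time. The deviations of Cd74 include the split of FAN ad libitum into libraries 6 and 7 (1157 and 1176 CPM) and 10 and 12 (595 and 615 CPM). The part of this split in the ranking was not tested.

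Leukocyte transcripts rose with the class II genes. Ptprc, which encodes the pan-leukocyte antigen CD45, rose by 3.23 (SE 0.27, adjusted p = 1.55e-08) with FAN under ad libitum and by 3.22 (SE 0.27, adjusted p = 9.29e-08) under time-restricted feeding. Of 10 macrophage markers, 10 and 9 rose, beside 32.1% and 24.5% of all genes higher, and their summed level was 1288 to 1466 CPM against 131 to 242 CPM (FAN against vehicle, ad libitum) and 555 to 1095 against 113 to 164 CPM (time-restricted). Of 11 dendritic cell markers, 11 rose under each regimen, with sums of 118 to 139 against 21.2 to 36.5 CPM and 68.9 to 111 against 19.8 to 25.5 CPM in the same order. B-cell markers did not follow. Of 7 tested, 1 rose and 1 fell under ad libitum feeding, beside 32.1% of all genes higher and 28.6% lower. None of the 7 passed under time-restricted feeding, beside 24.5% higher and 19% lower. Their sum was 6.15 to 8.33 against 4.54 to 8.05 CPM and 4.94 to 8.56 against 5.29 to 6.38 CPM, ranges that overlap. Injured-tubule markers rose in 5 of 5 under each regimen. Of the proximal tubule markers 4 of 5 fell under each regimen, beside 28.6% and 19% of all genes lower. The sums of the injured-tubule markers were 879 to 1281 against 18.1 to 35.7 CPM and 407 to 904 against 14.7 to 44.6 CPM. No marker of the macrophage, dendritic, B-cell, T-cell, proximal tubule or injured-tubule lists was at 0 in every library of a group. How much of the class II RNA came from each cell type was not tested.

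The class II genes were also compared relative to Ptprc, in 28 tests. The measure was log2 CPM of the gene minus log2 CPM of Ptprc, compared by a two-sided exact permutation test of 4 against 4 libraries, whose smallest p is 0.0286. At least 17 of the 28 tests would have to reach that smallest p for any to pass after adjustment, so a few differences could not be called in this design. Here 2 reached it, and the smallest p adjusted over the 28 tests was 0.343. Under ad libitum feeding all 7 differences between FAN and vehicle were negative, from -0.29 for H2-Ab1 to -1.11 for H2-DMb1. The largest differences were for H2-DMb1 with FAN under ad libitum feeding, -1.11 (-0.34 ± 0.12 against 0.77 ± 0.27, exact p = 0.0286), and for Cd74 with FAN under time-restricted feeding, -1.06 (2.93 ± 0.39 against 3.99 ± 0.48, exact p = 0.0286), each with SD and n = 4. In both, every FAN library was below every vehicle library. For H2-Aa the differences were -0.40 (exact p = 0.0857) and 0.13 (exact p = 0.657).

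In FAN mice, 10 of 10 macrophage markers were lower under time-restricted than ad libitum feeding, beside 13.9% of all genes lower, with a median log2 change of -0.76. Of 11 dendritic cell markers 4 were called lower, with a median of -0.53. Ptprc was at 41.3 to 63.8 CPM against 73.3 to 84.4 CPM, groups that did not overlap, with a log2 change of -0.46 that did not pass the test (adjusted p = 0.151). Relative to the mean of these 10 markers, H2-Aa was higher in FAN time-restricted by 0.69, H2-Ab1 by 0.64, H2-Eb1 by 0.58, H2-DMa by 0.49 and H2-DMb1 by 0.65 log2 units. In each of the 5 genes every FAN time-restricted library was above every FAN ad libitum library (exact p = 0.0286, adjusted p = 0.0571 over the 28 tests with this reference). Cd74 differed by -0.15 (exact p = 0.629) and Ciita by 0.10 (exact p = 0.657). With FAN under ad libitum feeding, all 7 genes lay below vehicle on this measure, from -0.54 for H2-Ab1 to -1.36 for H2-DMb1 (exact p = 0.0286 each). Under time-restricted feeding Cd74 (-0.98) and Ciita (-0.56) had that same exact p of 0.0286, and the other 5 ran from -0.64 for H2-DMb1 to 0.34 for H2-Ab1 with exact p of 0.0571 to 0.343. With this reference 14 of the 28 tests were at the smallest possible p, fewer than the 17 needed for any to pass after adjustment, so none was called. Of the B-cell and T-cell markers, 1 of 7 and 0 of 6 were called lower in FAN time-restricted than in FAN ad libitum.

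**Figure D4:**
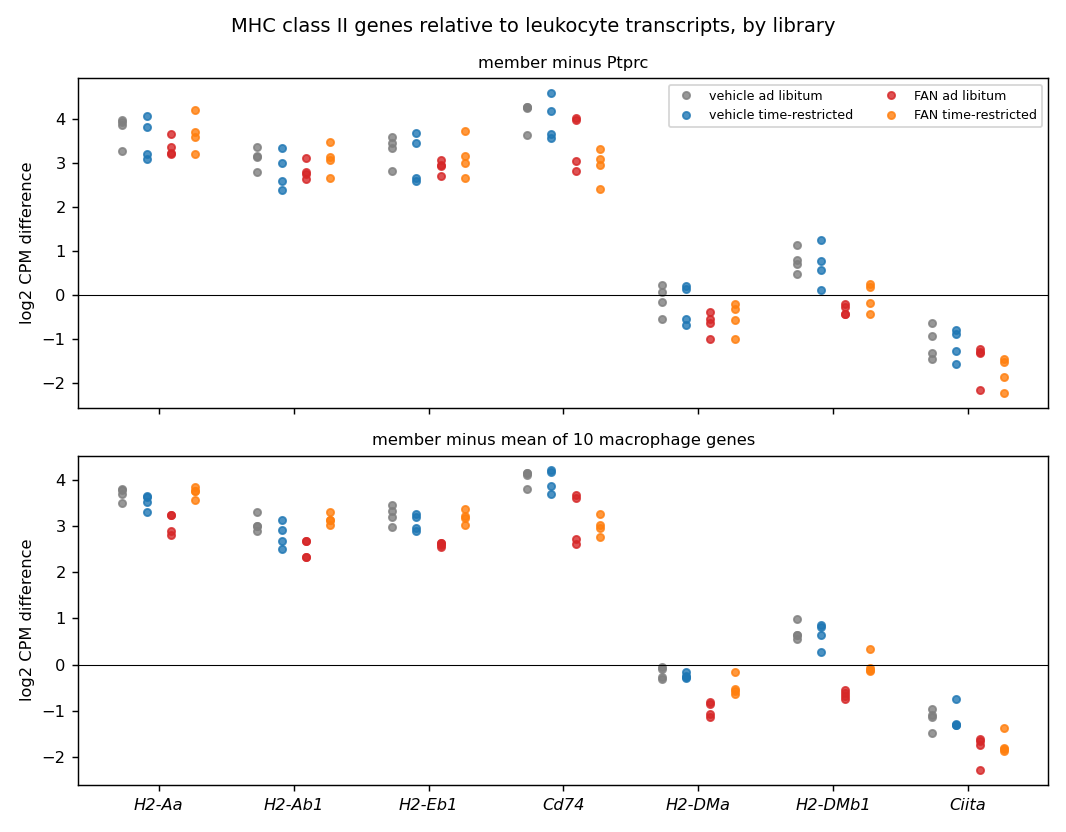
Log2 CPM of each class II gene minus that of Ptprc (top) and minus the mean of 10 macrophage markers (bottom) in each library (points, coloured by group). In the lower panel the FAN time-restricted libraries lie above the FAN ad libitum libraries for the 3 chain genes and both H2-DM genes, by 0.49 to 0.69 on average.

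Around the 7 genes, the accessory class II genes mostly rose with FAN. Of 7 tested, 5 rose and 1 fell under ad libitum and 6 rose under time-restricted feeding, beside 32.1% of all genes higher and 28.6% lower, and 24.5% higher and 19% lower. The median log2 change was 1.57 and 1.87, below that of the 7 class II genes. H2-DMb2, a second DM beta chain, rose by 3.71 (SE 0.30) from 1.08 ± 0.438 to 14.5 ± 5.04 CPM under ad libitum feeding and by 3.81 (SE 0.32) under time-restricted feeding. Its values carry an uncertainty too, because it shares transcript stretches with H2-DMb1. In vehicle libraries it had only 0.0618 to 0.0898 (ad libitum) and 0.0512 to 0.117 (time-restricted) of the H2-DMb1 counts. Cd83, a maturation antigen that stabilises surface class II, rose by 3.20 (SE 0.31) and 2.68 (SE 0.31). Marchf1, a ubiquitin ligase that removes class II from the surface, rose by 1.47 under each regimen. The related ligase Marchf8 fell by 0.83 (adjusted p = 1.39e-05) under ad libitum feeding and changed by -0.30 (adjusted p = 0.0538) under time-restricted feeding. It was higher in FAN time-restricted than FAN ad libitum by 0.54 (adjusted p = 0.00274), beside 17.9% of all genes higher in that comparison, and Cd83 was lower by 0.75 (adjusted p = 0.0459). The interaction of Marchf8 was 0.52 (adjusted p = 0.067).

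Among 7 factors that bind class II promoters, 3 rose and 2 fell with FAN under ad libitum feeding, beside 32.1% of all genes higher and 28.6% lower. Under time-restricted feeding 1 rose and 2 fell, beside 24.5% and 19%. These counts are near the shares of all genes. Rfx5, the DNA-binding subunit of the RFX complex, rose by 0.89 (adjusted p = 0.000888) and changed by 0.49 (adjusted p = 0.0586). Nfyc, a subunit of NF-Y, fell by 1.24 and by 1.09, from 94.9 ± 11.0 to 40.1 ± 3.57 CPM under ad libitum feeding. Rfxank, another RFX subunit, fell by 0.64 and 0.75, while Creb1 rose by 0.63 and 0.83. In FAN mice, 1 of the 7 was called between regimens, beside 13.9% of all genes lower and 17.9% higher. Nfya fell by 0.48 (adjusted p = 0.00201) under time-restricted feeding.

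Most of the genes listed for the pathway from interferon-gamma to Ciita rose, with median changes below that of Ciita. The list includes the inhibitor Socs1, so not every gene in it leads to Ciita. Of 8 tested, 8 rose under ad libitum and 7 under time-restricted feeding, beside 32.1% and 24.5% of all genes, with medians of 1.19 and 0.96. The receptor chains Ifngr2 and Ifngr1 rose by 2.05 and 1.64 under ad libitum and by 1.45 and 1.14 under time-restricted feeding. Irf1, a transcription factor that acts on the inducible Ciita promoter, rose by 1.44 and 1.42. Ifng itself did not pass the filter on low counts. It was at 0.041 to 0.232 CPM in FAN ad libitum against 0 to 0.0351 in its vehicle group, and at 0 to 0.157 in FAN time-restricted against 0 to 0.163, which is at most 9 counts in a library. In FAN mice, 1 of the 8 was called lower under time-restricted feeding, Irf2 (-0.47, adjusted p = 0.0477), a share near the 13.9% of all genes called lower.

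**Figure D5:**
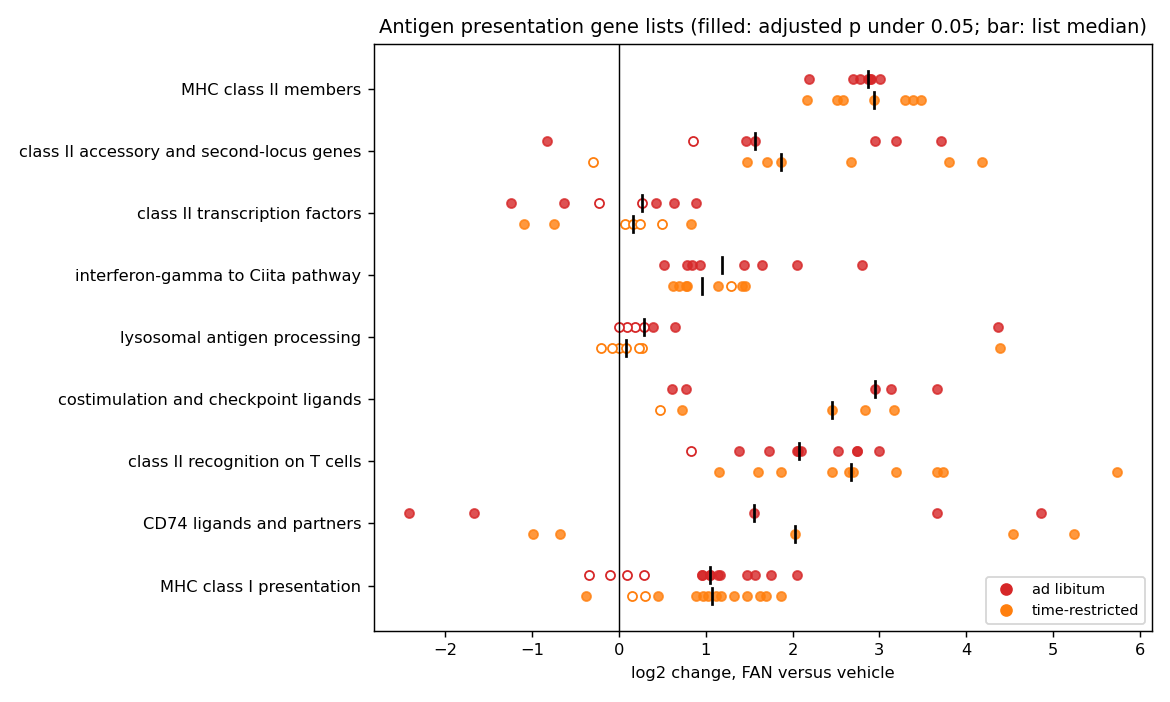
Log2 change with FAN of each gene in the class II set and 8 related lists (rows) under ad libitum (upper points) and time-restricted feeding (lower points); filled points have an adjusted p under 0.05 and black bars mark list medians. The class II genes lie between 2.17 and 3.48, and the transcription factors and lysosomal proteases centre near 0 except for Ctss at 4.36 and 4.39.

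Among lysosomal antigen-processing genes 1 gene had by far the largest change. Ctss, which encodes cathepsin S, the protease that removes the invariant chain in antigen-presenting cells, rose by 4.36 (SE 0.20, adjusted p = 5.6e-11) and 4.39 (SE 0.20, adjusted p = 1.92e-10). Its level was 325, 365, 382 and 350 CPM in FAN ad libitum, 197, 233, 262 and 146 CPM in FAN time-restricted, against 11.7 to 21.2 and 8.76 to 11.4 CPM in the vehicle groups of these regimens. These 4 groups did not overlap. Ctsb and Ctsd rose by 0.39 and 0.64 under ad libitum feeding, and the other 4 of the 7 did not pass. So 3 of 7 rose, beside 32.1% of all genes higher. Under time-restricted feeding Ctss alone was called, 1 of 7 beside 24.5% of all genes higher. In FAN mice Ctss was lower under time-restricted feeding by 0.76 (adjusted p = 0.00303). It was the only one of the 7 called, beside 13.9% of all genes lower and 17.9% higher.

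The partners that read class II on T cells and the costimulatory ligands also rose. Of 5 costimulation and checkpoint ligands tested, 5 and 4 rose, including Cd86 (3.14 and 3.17), Cd80 (3.66 and 2.45) and Cd40 (2.95 and 2.84). Of 10 T-cell genes, 9 and 10 rose. Both counts stand beside 32.1% and 24.5% of all genes higher. Cd4, the coreceptor for class II, rose by 2.74 (SE 0.45), from 0.442 to 1.31 CPM over the vehicle ad libitum libraries to 2.88 to 7.90 CPM in FAN ad libitum. Lag3, which binds class II as an inhibitory receptor, rose by 2.06 (SE 0.33), and Cd3e, part of the T-cell receptor complex, by 1.73 (SE 0.51) and 1.87 (SE 0.61). In FAN mice, 0 of 10 T-cell genes and 1 of 5 ligands (Cd40, -0.65, adjusted p = 0.0313) were called between regimens. In that comparison 13.9% of all genes were called lower and 17.9% higher.

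The ligands of CD74 fell with FAN. Mif and Ddt, which encode the cytokine MIF and its homologue, fell with FAN under ad libitum feeding by 1.67 (SE 0.21) and 2.42 (SE 0.14), and under time-restricted feeding by 0.68 (SE 0.20, adjusted p = 0.012) and 0.99 (SE 0.13). Mif was 44.0, 44.6, 52.9 and 41.0 CPM in FAN ad libitum and 86.2, 97.3, 113 and 74.2 CPM in FAN time-restricted. Ddt was 12.9, 12.2, 11.2 and 8.46 CPM and 28.4, 28.3, 28.6 and 32.3 CPM in the same groups. Neither gene's FAN groups overlapped, and both were higher under time-restricted feeding, by 1.02 (SE 0.21, adjusted p = 0.00113) and 1.39 (SE 0.13, adjusted p = 7.46e-07). They moved with the proximal tubule markers, of which 4 of 5 were called lower with FAN under each regimen. This stands beside 28.6% (ad libitum) and 19% (time-restricted) of all genes lower. In FAN time-restricted 4 of 5 of these markers were called higher than in FAN ad libitum, beside 17.9% of all genes higher. The part of proximal tubule cells in the result was not tested. The signalling partners Cd44 and Cxcr4 rose by 4.86 (SE 0.30) and 1.55 (SE 0.27) under ad libitum feeding.

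Class I presentation genes, a neighbouring pathway, mostly rose too, with lower medians. Of 14 tested, 10 rose under ad libitum feeding, and 11 rose and 1 fell under time-restricted feeding, beside 32.1% of all genes higher in the former and 24.5% higher and 19% lower in the latter, with medians of 1.05 and 1.07. Nlrc5, the class I counterpart of CIITA, rose by 2.05 (SE 0.24) and 1.87 (SE 0.25), and H2-D1, a classical class I heavy chain, by 1.04 (SE 0.13) and 1.12 (SE 0.13). In FAN mice under time-restricted feeding Nlrc5 fell by 0.78 (adjusted p = 0.0149) and Tap1, a subunit of the peptide transporter, by 0.51 (adjusted p = 0.0337), while Canx, a chaperone, rose by 0.35 (adjusted p = 0.0451). The other 11 did not pass. So 2 of 14 were called lower and 1 higher, beside 13.9% of all genes lower and 17.9% higher. The difference between the class I and class II lists was not tested.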

How the data were processed

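Poly(A) RNA of 16 mouse kidneys was sequenced with a stranded kit, per the labels' protocols. The authors deposited raw read counts per Ensembl gene in 1 table. STAR 2.5.3a with the mm10 build, FastQC 0.11.5 and edgeR 3.26.7 are named per the submitters' processing notes; how reads were counted, and on which strand, is not given in the sources used here. For 6 of 8 FAN columns the number is in no sample title of the group, and for 2 it is, so all 8 were assigned to a group and not to a sample. Any 2 libraries of a group differed by more than sampling noise (chi-square per degree of freedom at least 16.8).

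The analysis used edgeR 4.0.16 (R 4.3.3): a group-wise filterByExpr (minimum count 10), TMM scaling, and a quasi-likelihood model of all 16 libraries with 4 group means. Tests were two-sided, with Benjamini-Hochberg adjustment over 17731 genes and a threshold of 0.05. Log2 CPM used a prior count of 2. SE is the log2 change divided by the square root of its F value. The script was tested on simulated counts. Alternatives were DESeq2 1.42.0, other scalings and filters, S numbers, and left-out libraries.

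The members and lists were chosen with earlier results of these data known. All members were named, and per pathway list at most the 4 genes with the smallest p in a comparison, plus genes with a background role. Mif under time-restricted feeding, and the count ratios, were chosen after their values were seen. Coordinates come from GENCODE M21 by Ensembl identifier.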

Additional observations from a re-analysis of the deposited data

Results flagged for a closer look

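In 4 of 88 groups of values tested for a library that stands apart, the gap of 1 library to its nearest neighbour, divided by the range of its group, exceeded Dixon's 95% critical value. Chance flags about 1 in 20 such groups. Ciita in FAN ad libitum had a gap of 0.902, with library 10 low at 18.8 CPM. The Ciita-to-Ptprc log2 ratio of the same library was also low, at -2.16, with a gap of 0.91. H2-DMa in vehicle time-restricted had a gap of 0.913, with library 4 low at 4.07 CPM. The Cd74-to-Ptprc log2 ratio in vehicle ad libitum had a gap of 0.943, with library 1 low at 3.62.

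Of 73 members and pathway genes with an interaction test, 2 were called, beside 9.16% of all genes. Both encode ligands of CD74. The FAN change of Mif was larger, that is less negative, under time-restricted feeding by 0.987 (SE 0.29, adjusted p = 0.0378), and that of Ddt by 1.43 (SE 0.19, adjusted p = 0.000107), both from edgeR.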

How the results depend on the processing

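The count of 7 of 7 members called higher with FAN was the same under each alternative run, under both feeding regimens. Between the feeding regimens within FAN, library size scaling called 7 members and 11496 genes, late S numbers alone 0 and 2129, and leaving out libraries 6 and 7 of FAN ad libitum 0 and 3127. Library size scaling called 1 member and 6624 genes for the interaction. With the run of S numbers as a block, 4974 genes were called for FAN under time-restricted feeding. For feeding in vehicle, DESeq2 called 58 genes, no filter 6, the 2 groups alone 1, the run of S numbers as a block 1, middle S numbers alone 9, and leaving out 1 library 0 to 2.

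Signs of values that were not called turned in the following cases. The alternatives by S number and without libraries 6 and 7 were chosen after seeing the data. Under library size scaling the interaction was -0.067 for H2-Aa, -0.092 for H2-Ab1, -0.14 for H2-Eb1, -0.44 for H2-DMa and -0.26 for H2-DMb1. It was -0.13 for H2-DMa among early S numbers and 0.019 for Cd74 without libraries 6 and 7. The feeding change of H2-DMb1 in vehicle was 0.019 among middle S numbers, and that of H2-Aa in FAN ran from -0.33 to 0.020 over the left-out libraries, the latter without FAN time-restricted 12. Relative to macrophage markers, the feeding difference of Ciita was 0.10 in FAN and 0.0017 in vehicle. Relative to Ptprc, leaving out 1 library turned the sign of FAN against vehicle under time-restricted feeding for H2-Aa (-0.046 to 0.304) and H2-Eb1 (-0.157 to 0.234), and of feeding in FAN for H2-DMa (-0.001 to 0.274). It also turned feeding in vehicle for Cd74 (-0.307 to 0.035), Ciita (-0.167 to 0.107), H2-DMa (-0.259 to 0.044) and H2-DMb1 (-0.295 to 0.082). The cause was not tested.

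The replicate block was run for vehicle only, since 6 of 8 FAN columns carry numbers that are in no sample title of their group. It called 0 members and 0 genes. Deviations of same-numbered vehicle libraries correlated at 0.179, 0.119, -0.146 and -0.013. Those of differently numbered ones ran from -0.284 to 0.325, a range that holds all of these values. Whether the numbers pair the samples therefore cannot be told from these correlations.

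Ciita, H2-DMa and H2-DMb1 have few counts in vehicle (24 to 482 per library), which limits small differences there. With 4 libraries per group the exact tests cannot go below 0.0286.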
